A study of Mus musculus with 6 samples.

Results

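The genes described here encode the proteins that carry iron into a cell, store it, pass it to mitochondria and export it, together with the RNA-binding proteins that set their translation and mRNA stability. They were taken by name as 10 of the 54532 genes in a table of read counts from mouse acute myeloid leukemia cells: *Tfrc*, *Steap3*, *Slc11a2*, *Slc11a1*, *Slc25a37*, *Fth1*, *Ftl1*, *Slc40a1*, *Aco1* and *Ireb2*. All 10 had enough reads to be tested. GFP+ leukemia cells had been sorted from mouse bone marrow and sequenced as 3 *WT Phf6,RE9a* libraries (replicates 1, 2 and 3) and 3 *VC Phf6,RE9a* libraries (replicates 11, 12 and 13). *WT Phf6,RE9a* cells were *Phf6* fl/y and kept an intact floxed *Phf6* allele, and *VC Phf6,RE9a* cells were Vav1-Cre;*Phf6* fl/y, in which Cre under the hematopoietic Vav1 promoter deletes *Phf6* in blood cells. Both groups carried a retrovirus for RUNX1-ETO9a (RE9a), a shortened form of the leukemia fusion protein RUNX1-ETO, together with GFP. According to the study's methods the virus was put into fetal liver progenitors of male embryos, and the leukemias were passed serially through young adult male recipients. Nothing in the labels tells if the 3 libraries in each group represent separate leukemias or mice, so the p-values measure the spread between these libraries, which may be technical.

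Most mammalian cells take up iron as transferrin bound to the transferrin receptor. In the endosome the iron is released, reduced by a STEAP reductase and carried into the cytosol by a divalent metal transporter. Surplus iron is held in ferritin, a shell of heavy and light chains, or leaves the cell through ferroportin. When iron is scarce, iron regulatory proteins bind a hairpin in mRNA, the iron-responsive element, which blocks translation when it lies in the 5′ UTR and protects the mRNA from decay when it lies in the 3′ UTR. Erythroid cells import most iron, for heme, and macrophages recycle it from old red cells.

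The hairpins are shown because they are the sequence feature that ties several of these genes together. Protein-coding transcripts of GENCODE M21 (GRCm38) were searched for a bulged C, 5 stem bases, the loop CAGTGN and 5 further bases able to pair with the first 5 (mRNA strand only, G-T pairs allowed, N being any base). Such a site was in a 5′ UTR of 31 of 21877 genes (0.142%) and in a 3′ UTR of 129 (0.59%). *Fth1*, *Ftl1* and *Slc40a1* had 1 each in the 5′ UTR, all in exon 1, and *Tfrc* had 4 in the 3′ UTR, all in exon 19. The 27 bases of each are given 5′ to 3′ as DNA letters, with the bulged C and the loop in capitals.
*Fth1*, 5′ UTR, chr19:9982733-9982759, plus strand: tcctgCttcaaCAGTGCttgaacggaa
*Ftl1*, 5′ UTR, chr7:45459780-45459806, minus strand: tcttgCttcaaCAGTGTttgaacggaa
*Slc40a1*, 5′ UTR, chr1:45925466-45925492, minus strand: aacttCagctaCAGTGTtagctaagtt
*Tfrc*, 3′ UTR, chr16:32631220-32631246, plus strand: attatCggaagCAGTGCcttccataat
*Tfrc*, 3′ UTR, chr16:32631599-32631625, plus strand: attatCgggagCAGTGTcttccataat
*Tfrc*, 3′ UTR, chr16:32631664-32631690, plus strand: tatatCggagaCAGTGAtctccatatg
*Tfrc*, 3′ UTR, chr16:32631711-32631737, plus strand: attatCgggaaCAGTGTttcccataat
The upper stems on both sides of the loop have the same letters in the ferritin heavy and light chain sites. For the other 6 genes no site of exactly this form was found, which says only that these letters are not in their annotated UTRs. Hairpins of another form, such as a stem with an extra bulge, could not be found by this search, so these genes may still have one. A match describes the sequence and was not tested for binding.

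Total counts per library ran from 15675358 to 16817994. *Phf6* had 1044, 827 and 1142 counts in *WT Phf6,RE9a* and 388, 314 and 331 in *VC Phf6,RE9a* libraries, lower in each knockout library. Counts were scaled with edgeR's TMM method to CPM, a count relative to the library total, and compared with its quasi-likelihood test over 14169 genes, with Benjamini-Hochberg adjustment and a threshold of 0.05. The pan-leukocyte gene *Ptprc* and the myeloid regulators *Spi1* and *Runx1* were read in every library and did not pass the threshold between the groups. *Runx1* was narrowly short of it (edgeR, adjusted p = 0.0533), at 875 ± 65.3 and 726 ± 11.3 CPM (SD, n = 3) without overlap. *Ptprc* spread widely, at 22.7 ± 10.1 and 41.1 ± 20.3 CPM (SD, n = 3; edgeR, adjusted p = 0.180). *Kit*, a progenitor receptor, went from 2419.7 ± 471 to 273 ± 70.1 CPM (SD, n = 3), while the myeloid genes *Mpo* and *Itgam* were called higher in *VC Phf6,RE9a* cells. For *Itgam* the groups overlapped, with *WT Phf6,RE9a* replicate 3 at 4.72 CPM and *VC Phf6,RE9a* replicate 13 at 4.63 CPM. In bulk RNA, fewer cells of a type and less RNA per cell cannot be told apart.

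Of the 10 iron genes, 8 rose in *VC Phf6,RE9a* cells, 1 fell and 1 did not pass the threshold. Among all genes tested, 21.4% were higher and 22.7% were lower by the same rule, 44.1% in all. The median log2 fold change of the 10 genes was 0.81, against 0.013 over all genes tested. *Slc40a1*, *Slc11a2*, *Steap3*, *Aco1* and, downwards, *Ftl1* changed by over 2-fold, and the other 4 called genes by less. Rises of that size made up 9.88% of all genes tested. The 3 libraries of each group did not overlap for any of the 10 genes, a separation that 57.3% of all genes tested also showed. For 9 of the 10 the higher values were in *VC Phf6,RE9a*, and 28.9% of all genes did not overlap in that direction. When *VC Phf6,RE9a* replicate 11 or 12 was left out, 5 iron genes were still called higher, *Fth1*, *Slc11a1* and *Steap3* no longer being among them. Over all genes tested, the calls higher also went down in these fits, from 3039 of 14169 to 2188 of 14580 and 2193 of 14668. With total counts in place of TMM the median of all genes moved to 0.16, the calls over all genes went from 3039 higher and 3210 lower to 4033 and 2465, and *Ireb2* was also called higher (log2 fold change 0.30, adjusted p = 0.0261).

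**Figure D1:**
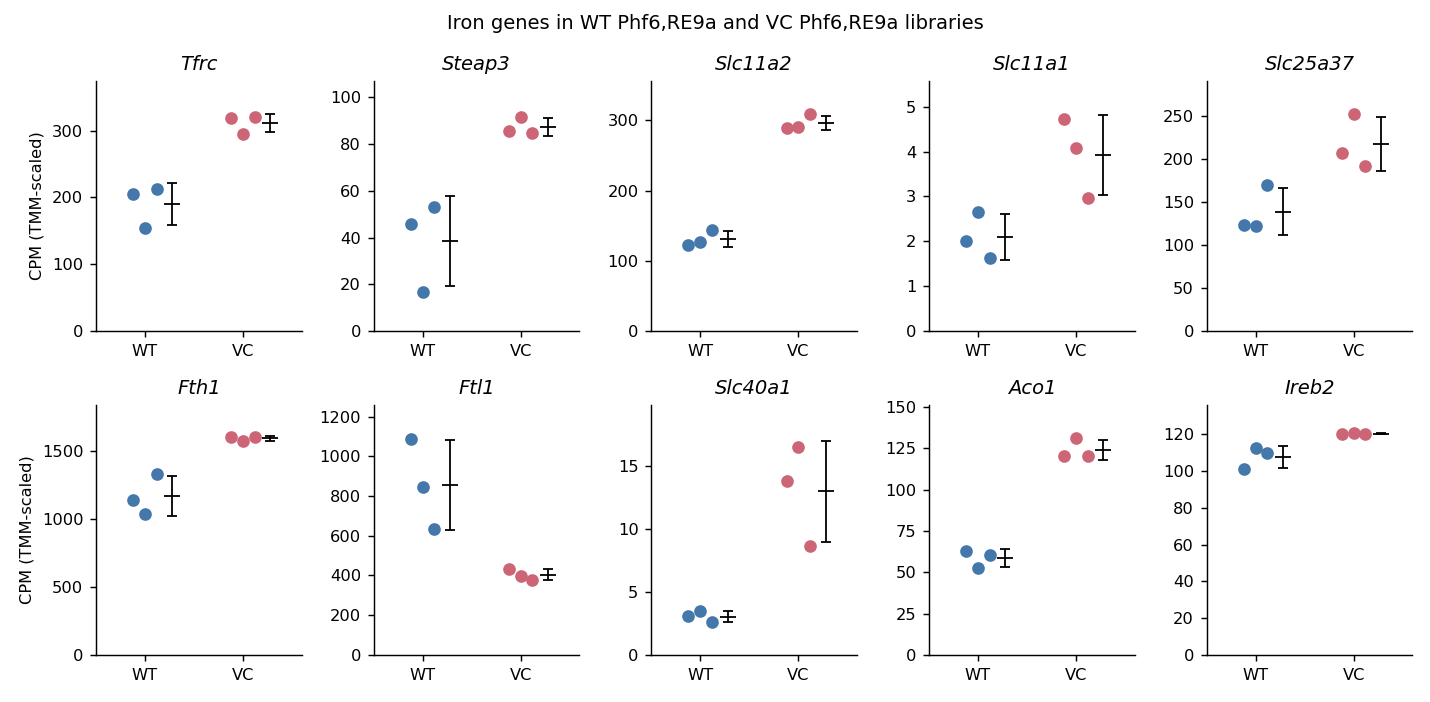
CPM of the 10 iron genes in each library, with *WT Phf6,RE9a* in blue, *VC Phf6,RE9a* in red, and the mean with its SD (n = 3) beside the points. Each vertical axis starts at 0, and in every panel the 3 points of one group lie apart from those of the other, with *Ftl1* the gene whose *VC Phf6,RE9a* points lie lower.

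The 4 uptake genes among the 10, *Tfrc*, *Steap3*, *Slc11a2* and *Slc11a1*, were each called higher in *VC Phf6,RE9a* cells. *Tfrc* (chr16:32608920-32632794), the transferrin receptor, was at 205, 154 and 212 CPM in *WT Phf6,RE9a* and at 319, 296 and 320 CPM in *VC Phf6,RE9a* libraries. The *VC Phf6,RE9a* libraries were close to each other, and *WT Phf6,RE9a* replicate 2 was the lowest of all. The log2 fold change was 0.71 (edgeR, standard error or SE 0.13, adjusted p = 0.00362), or 1.64-fold.

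*Steap3* (chr1:120190757-120272705) encodes the ferrireductase of the transferrin endosome. It was at 45.9, 16.8 and 53.1 CPM in *WT Phf6,RE9a* and at 85.4, 91.6 and 84.5 CPM in *VC Phf6,RE9a* libraries. *WT Phf6,RE9a* replicate 2 lay far under the other two of its group, which gave *Steap3* the widest relative spread of the 10 genes there (coefficient of variation 49.7%, against 4.46% in *VC Phf6,RE9a*). The log2 fold change was 1.17 (edgeR, SE 0.36, adjusted p = 0.0340). Without that replicate it was 0.81 (adjusted p = 0.000777). The call was lost when any *VC Phf6,RE9a* library was left out (adjusted p from 0.0771 to 0.0830).

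*Slc11a2* (chr15:100387898-100425072) encodes the divalent metal transporter DMT1, which moves the reduced iron out of the endosome. It was at 122, 126 and 144 CPM in *WT Phf6,RE9a* and at 289, 291 and 308 CPM in *VC Phf6,RE9a* libraries. The groups were separated by more than the largest *WT Phf6,RE9a* value, and the log2 fold change was 1.18 (edgeR, SE 0.090, adjusted p = 8.68e-05), the smallest p of the 10 genes. Its relative *Slc11a1* (chr1:74375195-74386062), the NRAMP1 transporter of the phagosome in macrophages and granulocytes, was read little. It had 31, 39 and 27 counts in *WT Phf6,RE9a* and 80, 70 and 50 in *VC Phf6,RE9a* libraries, or 2.10 ± 0.511 and 3.92 ± 0.886 CPM (SD, n = 3). The log2 fold change of 0.90 (edgeR, SE 0.31, adjusted p = 0.0455) passed the threshold narrowly. It did not pass without *WT Phf6,RE9a* replicate 1 or 3 or without *VC Phf6,RE9a* replicate 11 or 12 (adjusted p from 0.106 to 0.146), nor without the count filter (adjusted p = 0.0623).

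*Slc25a37* (chr14:69241848-69285112) encodes mitoferrin 1, which carries iron into the mitochondria of erythroid precursors. It was at 123, 122 and 170.0 CPM in *WT Phf6,RE9a* and at 207, 252 and 192 CPM in *VC Phf6,RE9a* libraries, with replicate 3 the *WT Phf6,RE9a* library nearest to the other group. The log2 fold change was 0.65 (edgeR, SE 0.16, adjusted p = 0.0134). The paralog *Slc25a28*, the more widely expressed mitoferrin 2, was at 49.0 ± 5.19 and 50.6 ± 2.47 CPM (SD, n = 3), a difference short of the threshold (log2 fold change 0.047, edgeR adjusted p = 0.742).

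The ferritin chains changed in opposite directions. *Fth1* (chr19:9982703-9985092), the heavy chain with the ferroxidase activity that oxidises iron for storage, had 17586, 15315 and 21953 counts in *WT Phf6,RE9a* and 27159, 26948 and 27008 in *VC Phf6,RE9a* libraries. In CPM these were 1142, 1039 and 1329 against 1604, 1570.1 and 1605, and the knockout libraries differed by little. The log2 fold change was 0.45 (edgeR, SE 0.12, adjusted p = 0.0176), or 1.36-fold. The call was lost without *WT Phf6,RE9a* replicate 1 and without each *VC Phf6,RE9a* library (adjusted p from 0.0509 to 0.0605), and with limma on log2(FPKM + 1) (adjusted p = 0.164), at nearly the same fold change.

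*Ftl1* (chr7:45457944-45459884), the light chain, which has no ferroxidase site and helps build the iron core, had 16781, 12495 and 10518 counts in *WT Phf6,RE9a* and 7340, 6853 and 6345 in *VC Phf6,RE9a* libraries. At 1089, 848 and 637 CPM against 433, 399 and 377 CPM, each *WT Phf6,RE9a* library was above every *VC Phf6,RE9a* library, and *WT Phf6,RE9a* replicate 3 was the nearest. It fell by 1.09 on the log2 scale (edgeR, SE 0.19, adjusted p = 0.00288), 2.13-fold lower. The related gene *Ftl1-ps1*, named as a pseudogene but given as protein-coding in the deposited table, can share reads with it. *Ftl1-ps1* was at 13.6 ± 5.69 and 6.66 ± 0.843 CPM (SD, n = 3) and was also lower (log2 fold change -1.03, edgeR adjusted p = 0.0348). The heavy chain copy *Fth-ps2* had at most 5 counts in any library. When the counts of these and the other ferritin copies named as pseudogenes were added to their parent genes, a choice made after the values were seen, the log2 fold changes were 0.45 for *Fth1* and -1.09 for *Ftl1*.

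Per length, the heavy to light chain ratio (FPKM of *Fth1* over FPKM of *Ftl1*) was 1.62, 1.90 and 3.23 in *WT Phf6,RE9a* and 5.73, 6.08 and 6.59 in *VC Phf6,RE9a* libraries. The level of this ratio, like the sum and shares below, depends on the deposited gene lengths, 866 bases for *Fth1* and 1340 bases for *Ftl1*. This ratio does not depend on how libraries are scaled. Its means were 2.25 ± 0.860 and 6.13 ± 0.432 (SD, n = 3), and the means of the log2 ratios differed by 1.51. An exact 2-sided permutation test gave p = 0.1, the smallest that 3 against 3 libraries allow (adjusted p = 0.133 over the 4 ratios computed). The sum of both chains was 1979 ± 157 FPKM in *WT Phf6,RE9a* and 2113 ± 29.6 FPKM in *VC Phf6,RE9a* libraries (SD, n = 3), and the highest *WT Phf6,RE9a* sum, 2131 FPKM, lay within the *VC Phf6,RE9a* range. The light chain made up 38.1%, 34.5% and 23.6% of it in *WT Phf6,RE9a* and 14.9%, 14.1% and 13.2% in *VC Phf6,RE9a* libraries.

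**Figure D2:**
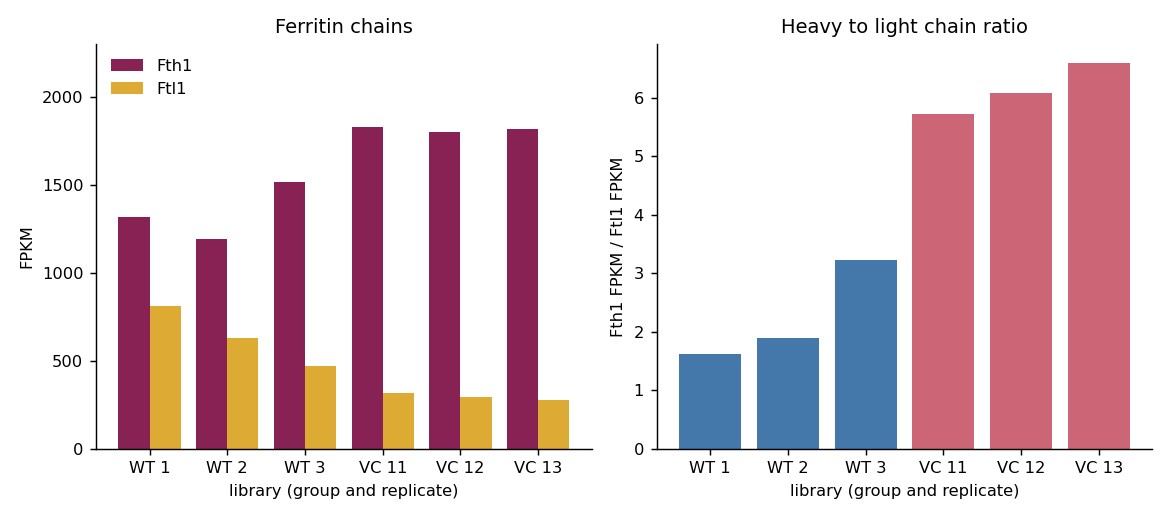
Left, FPKM of the ferritin heavy chain *Fth1* and light chain *Ftl1* in each library; right, their ratio, with *WT Phf6,RE9a* in blue and *VC Phf6,RE9a* in red. Bars are single libraries and start at 0; the ratio was at most 3.23 in *WT Phf6,RE9a* and at least 5.73 in *VC Phf6,RE9a* libraries.

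*Slc40a1* (chr1:45908068-45926523) encodes ferroportin, the only known cellular iron exporter of mammals, and had the largest fold change of the 10 genes from a low level. It had 47, 51 and 43 counts in *WT Phf6,RE9a* and 234, 283 and 145 in *VC Phf6,RE9a* libraries. These were 3.05, 3.46 and 2.60 CPM against 13.8, 16.5 and 8.62 CPM, with replicate 13 the lowest of the knockout libraries and still above all *WT Phf6,RE9a* libraries. Its coefficient of variation in *VC Phf6,RE9a*, 30.9%, was the largest of the 10 genes there. The log2 fold change was 2.09 (edgeR, SE 0.28, adjusted p = 0.000966), or 4.27-fold. On the log2(FPKM + 1) scale, which understates changes of genes at this level, limma gave 0.84 (adjusted p = 0.00427).

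The 2 iron regulatory proteins did not move alike. *Aco1* (chr4:40143081-40198338) encodes IRP1, a protein that is a cytosolic aconitase when it holds an iron-sulfur cluster and binds iron-responsive elements when it does not. It was at 62.6, 52.8 and 60.5 CPM in *WT Phf6,RE9a* and at 120.4, 131 and 120.4 CPM in *VC Phf6,RE9a* libraries, a log2 fold change of 1.08 (edgeR, SE 0.094, adjusted p = 0.000140). *Ireb2* (chr9:54863789-54912530) encodes IRP2, which has no aconitase activity and is degraded when iron is plentiful. It was at 101, 113 and 109.6 CPM in *WT Phf6,RE9a* and at 120.0, 120.4 and 120.1 CPM in *VC Phf6,RE9a* libraries. The groups did not overlap, but the log2 fold change of 0.16 (edgeR, SE 0.077, adjusted p = 0.134) did not pass the threshold. The *Ireb2* to *Aco1* ratio of FPKM was 0.766, 1.01 and 0.860 in *WT Phf6,RE9a* and 0.473, 0.436 and 0.473 in *VC Phf6,RE9a* libraries (exact 2-sided permutation p = 0.1, adjusted p = 0.133). The *Slc25a37* to *Slc25a28* ratio, 0.720 ± 0.171 and 1.08 ± 0.174 (SD, n = 3), had an exact permutation p = 0.1. The *Slc11a1* to *Slc11a2* ratio, 0.0279 ± 0.00822 and 0.0229 ± 0.00584 (SD, n = 3), had an exact permutation p = 0.4 and overlapped between the groups.

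**Figure D3:**
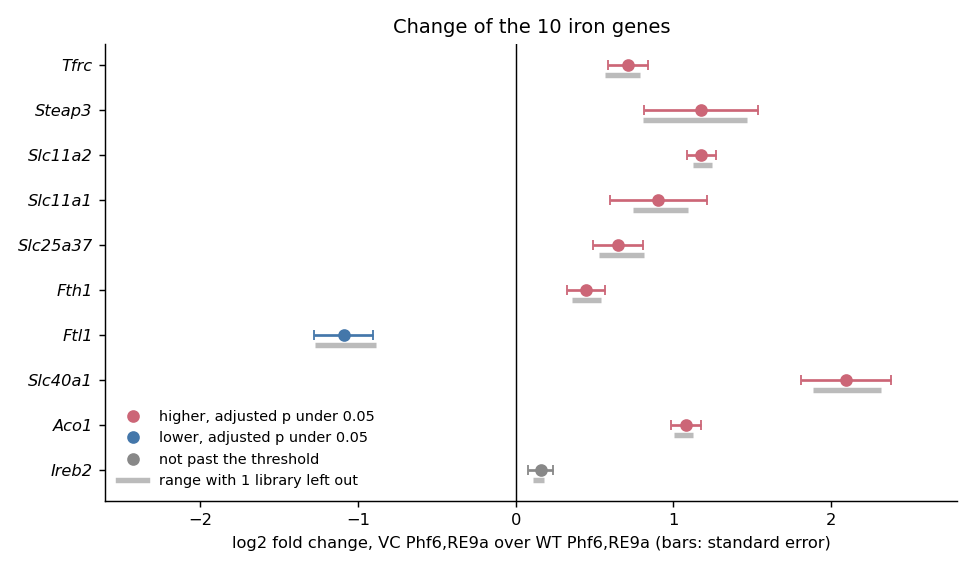
Log2 fold change of each iron gene in *VC Phf6,RE9a* relative to *WT Phf6,RE9a* cells, from edgeR, with its standard error; grey bands give the lowest and highest value when 1 library is left out. *Slc40a1* lies highest at 2.09, *Ftl1* is the gene below 0 at -1.09, and no band reaches 0.

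Levels between genes were compared per length, as FPKM. Ferritin was far above the rest in both groups, *Fth1* at 1342 ± 165 and 1815 ± 14.1 FPKM and *Ftl1* at 637 ± 172 and 297 ± 21.5 FPKM in *WT Phf6,RE9a* and *VC Phf6,RE9a* libraries (SD, n = 3). In *WT Phf6,RE9a* libraries *Tfrc* followed at 30.6 ± 5.15 FPKM, then *Slc25a37*, *Slc11a2*, *Aco1*, *Ireb2*, *Steap3*, *Slc11a1* and, lowest at 0.335 ± 0.0478 FPKM, *Slc40a1*. The ranges of *Tfrc* and *Slc25a37*, of *Slc25a37* and *Slc11a2*, and of *Aco1* and *Ireb2* overlapped, so these neighbours were not separated. In *VC Phf6,RE9a* libraries *Slc11a2* (46.0 ± 1.44 FPKM) stood next to *Tfrc* (49.7 ± 1.98 FPKM) with overlapping ranges. *Steap3* (15.1 ± 0.754 FPKM) stood above *Ireb2* (12.5 ± 0.0882 FPKM) there, and *Slc40a1* and *Slc11a1* overlapped at the lower end.

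The iron genes were less even among *WT Phf6,RE9a* than among *VC Phf6,RE9a* libraries. The coefficient of variation was larger in *WT Phf6,RE9a* for 9 of the 10 genes, *Slc40a1* being the exception, with medians of 15.4% and 4.73%. The medians over the 9043 tested genes above a mean of 10 CPM were 11.7% and 6.31%. Of the *WT Phf6,RE9a* libraries, replicate 2 was the lowest for 5 of the 10 genes and replicate 3 the highest for 5. Replicate 3, with the most *Fth1* and the least *Ftl1* of its group, also had the highest summed level of 16 neutrophil markers, 612 CPM against 238 and 194. It had the lowest sum of 11 mast cell and basophil markers, 19098 CPM against 27309 and 30037. In *VC Phf6,RE9a* replicates 11, 12 and 13 the neutrophil sums were 4237, 2762 and 1166 CPM. There *Fth1* was at 1604, 1570.1 and 1605 CPM and *Ftl1* at 433, 399 and 377 CPM, so *Ftl1* was highest where the neutrophil sum was highest. A link between these levels was not tested.

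Other genes of iron handling were taken from 5 lists. Of 61 genes found in the table by name, 48 were tested, and 15 were higher and 10 lower, with a median log2 fold change of 0.079. Among all genes tested 21.4% were higher and 22.7% lower. Steap1, Steap2, Ftmt, Heph, Hamp, Hamp2, Hfe2 and Bmp6 had no count in any library, where 3 counts came to between 0.175 and 0.204 CPM.

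In the list of uptake and reduction, 4 of 10 tested genes were higher and 3 lower (median log2 fold change 0.083). *Tfr2*, the second transferrin receptor, went from 111 ± 14.8 to 163 ± 4.31 CPM (SD, n = 3). *Slc39a8*, the ZIP8 importer of metal ions, went from 70.2 ± 7.09 to 141 ± 11.1 CPM (SD, n = 3). *Cybrd1*, a cytochrome b ferrireductase, had 241, 97 and 184 counts in *WT Phf6,RE9a* and 4, 6 and 3 in *VC Phf6,RE9a* libraries (edgeR, adjusted p = 0.000130). The other 2 higher genes, *Ltf* and *Lcn2*, encode iron- and siderophore-binding proteins of neutrophil granules and are also among the neutrophil markers; *Ltf*, at 39.4 ± 27.1 and 338 ± 189.6 CPM (SD, n = 3), lost its call without the count filter (edgeR, adjusted p = 0.0649). *Snx3* and *Exoc6*, of transferrin receptor recycling and transferrin trafficking, had log2 fold changes short of the threshold (-0.077 and 0.17).

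In the list of storage and chaperones, none of 6 tested genes was higher and 2 were lower (median log2 fold change -0.035). *Ncoa4*, the receptor that delivers ferritin to lysosomes for iron release, had 5646, 4972 and 5421 counts in *WT Phf6,RE9a* and 2314, 2213 and 2177 in *VC Phf6,RE9a* libraries. It fell by 1.39 on the log2 scale (edgeR, SE 0.083, adjusted p = 3.65e-05), with the groups far apart. *Pcbp3* fell by 0.53 on that scale (edgeR, adjusted p = 0.00508). *Pcbp1* and *Pcbp2*, iron chaperones that load ferritin, had log2 fold changes of -0.034 and 0.18, and *Herc2*, a ubiquitin ligase linked to *Ncoa4* turnover, of 0.19, none past the threshold.

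In the list of export and the hepcidin axis, 1 of 4 tested genes was higher and 2 were lower (median log2 fold change -0.88). *Bmp2*, a ligand of the pathway that induces hepcidin in liver, went from 318 ± 84.4 to 61.8 ± 11.1 CPM (SD, n = 3). *Hfe*, the hemochromatosis protein, went from 8.76 ± 2.05 to 4.44 ± 0.325 CPM (SD, n = 3). *Mon1a*, which takes part in ferroportin trafficking in macrophages, went from 23.2 ± 1.45 to 32.7 ± 0.472 CPM (SD, n = 3).

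In the list of mitochondrial iron and iron-sulfur clusters, 6 of 18 tested genes were higher and 2 lower (median log2 fold change 0.12). *Abcb10*, a mitochondrial transporter that binds and stabilises mitoferrin 1, had 3286, 3508 and 4035 counts in *WT Phf6,RE9a* and 8616, 9303 and 9266 in *VC Phf6,RE9a* libraries, a log2 fold change of 1.20 (edgeR, SE 0.091, adjusted p = 7.98e-05). *Hscb*, a cochaperone of cluster assembly, rose by 0.77 on the log2 scale (edgeR, adjusted p = 0.00113), and its partner *Hspa9* had a log2 fold change of -0.033. *Fdx1*, a mitochondrial ferredoxin, went from 168 ± 18.6 to 35.0 ± 3.18 CPM (SD, n = 3), which is -2.26 on the log2 scale (edgeR, adjusted p = 2.66e-05).

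In the list of heme uptake and recycling, 4 of 10 tested genes were higher and 1 lower (median log2 fold change 0.38). *Slc48a1*, the HRG1 heme transporter, went from 241 ± 14.1 to 507 ± 4.93 CPM (SD, n = 3). *Blvrb*, a biliverdin reductase, went from 151 ± 23.3 to 372 ± 16.8 CPM (SD, n = 3), and *Abcg2*, a porphyrin exporter, from 133 ± 23.8 to 322 ± 29.9 CPM (SD, n = 3). The heme oxygenase gene *Hmox1*, named after its values were seen, was at 10.9 ± 4.99 and 6.16 ± 1.29 CPM (SD, n = 3), short of the threshold (edgeR, adjusted p = 0.0993).

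**Figure D4:**
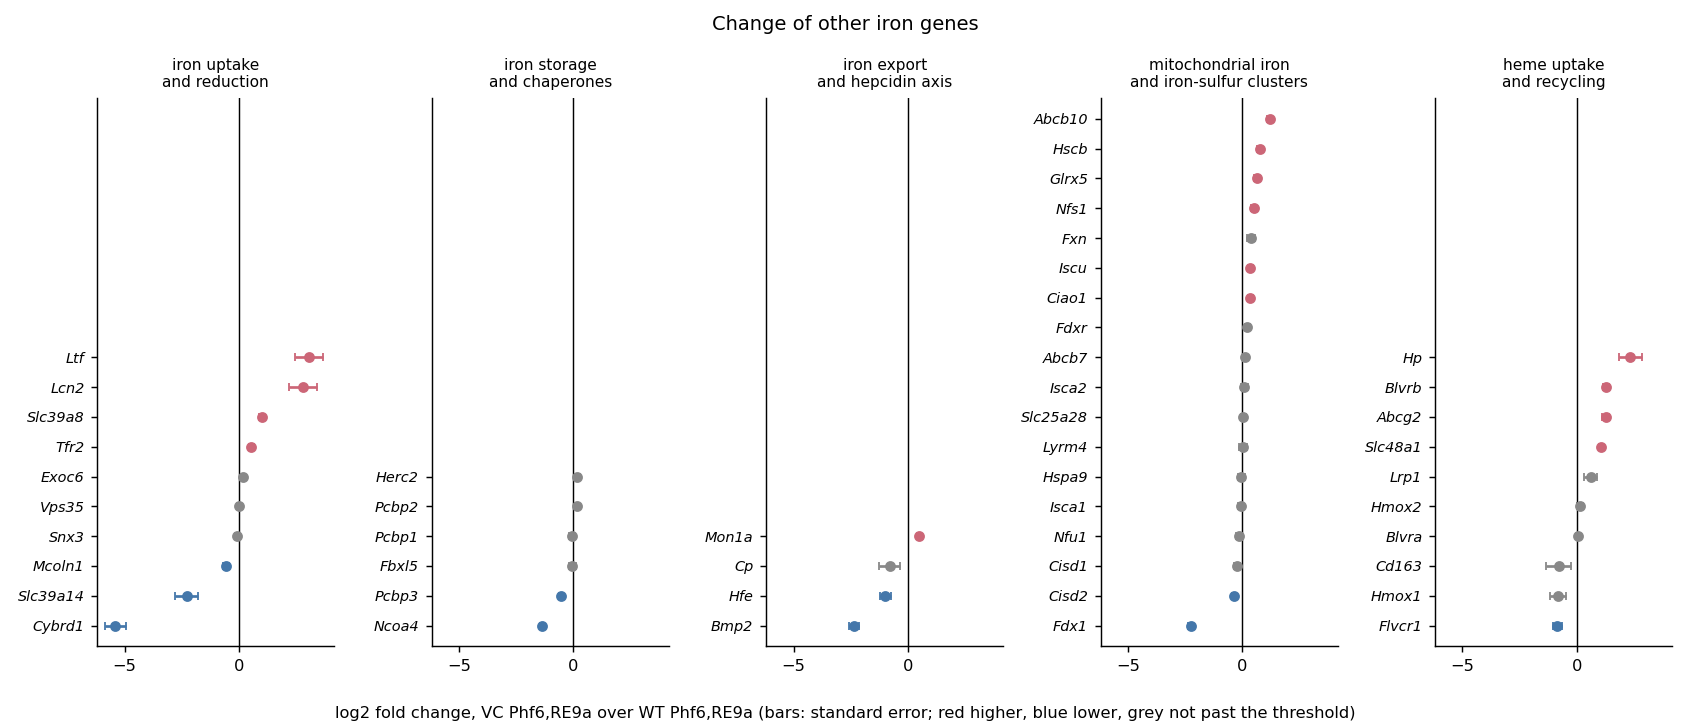
Log2 fold change, with standard error, of the 48 tested genes in 5 lists of other iron genes, in *VC Phf6,RE9a* relative to *WT Phf6,RE9a* cells; red genes were called higher, blue genes lower and grey genes neither. *Cybrd1* lies lowest at -5.40 and *Ltf* highest at 3.10, and 15 genes are red and 10 blue.

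Markers of other cell types moved with the same contrast. The 14 erythroid markers found in the table, of 15 listed, all rose in *VC Phf6,RE9a* cells, with a summed level of 1916 to 2690 CPM in *WT Phf6,RE9a* and 6695 to 7665 CPM in *VC Phf6,RE9a* libraries, led by the globins *Hbb-bs*, *Hba-a1* and *Hbb-bt*. All 16 neutrophil markers were higher, from 194 to 612 CPM in *WT Phf6,RE9a* and from 1166 to 4237 CPM in *VC Phf6,RE9a* libraries, led by *S100a9*, *S100a8* and *Ngp*. Without the count filter, *S100a9*, *S100a8* and *Ngp* lost their calls (edgeR, adjusted p = 0.0564, 0.0505 and 0.0725). Of 11 mast cell and basophil markers, *Kit* among them, 10 were lower, from 19098 to 30037 CPM against 4976 to 5426 CPM, led by *Cpa3*, *Cma1* and *Tpsb2*. Of 12 proliferation markers 7 were higher, among them *Mki67* and *Top2a* but not *Pcna*, with sums of 2060 to 3146 CPM against 3458 to 3685 CPM. By the same rule, 21.4% of all genes tested were higher and 22.7% lower.

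Macrophage markers were low in both groups. Of 13 tested, 4 were higher, 0 lower and 9 not called, where 21.4% of all genes tested were higher. The median log2 fold change of these markers was 0.78, against 0.013 over all genes tested. Their sum was 26.6 to 46.6 CPM in *WT Phf6,RE9a* and 54.1 to 65.8 CPM in *VC Phf6,RE9a* libraries. The 3 with the highest FPKM, *C1qa*, *C1qb* and *Csf1r*, were among the 9 that did not pass the threshold. The complement genes *C1qa* and *C1qb* were at 2.81 ± 1.24 and 2.40 ± 1.25 CPM against 4.30 ± 0.572 and 4.05 ± 0.705 CPM (SD, n = 3). *Csf1r* was at 8.19 ± 2.48 and 12.2 ± 4.79 CPM (SD, n = 3). *Marco* and *Timd4*, of tissue macrophages, had at most 5 counts in any library and were not tested. The part of these cell types in the changes of *Tfrc*, *Slc25a37*, *Slc40a1*, *Slc11a1* and the other iron genes was not tested.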

How the data were processed

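RNA-sequencing of 6 libraries, 3 from *WT Phf6,RE9a* and 3 from *VC Phf6,RE9a* leukemia cells, was analysed from a deposited table that listed 54532 Ensembl genes. For each gene the authors gave the number of reads as a whole-number count, not normalized, and an FPKM value, which in the deposited table equals that count scaled by gene length and a constant for each library. The table's columns of group means, fold changes and p-values from the authors' own comparison were not used. The submitters' processing notes name Bowtie 0.12.0 and mm8, without saying for what. The deposited coordinates were those of GENCODE M21 (GRCm38) for 9 of the 10 iron genes and for 98.26% of genes with an identifier there; *Fth1* starts later in the deposited table. Counting tool and strandedness are not given in the sources used here. Reads of overlapping genes cannot be told apart without strand; the genes that overlap an iron gene had at most 0.736% of its counts in any library.

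In R 4.3.3, counts were filtered with filterByExpr, scaled by TMM and fitted with edgeR 4.0.16 (robust quasi-likelihood fit), without covariates, which left 14169 genes. The SE of a fold change was taken as its size on the log2 scale over the root of the F statistic. Alternatives were DESeq2 1.42.0, the tool the study used, RLE size factors, total counts, an unfiltered fit, a minimum of 10 counts per library, limma 3.58.1 on log2(FPKM + 1) and leaving out each library. Ratios were taken of deposited FPKM. Within groups, every pair of libraries differed beyond sampling noise (11.8 to 46.4 chi-square units per gene), so none was a copy of another. This compares with counting noise only and cannot tell separate preparations from the same mouse or RNA from separate leukemias. Figures were drawn with matplotlib 3.10.9.

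The iron genes, the lists and the tests were chosen with earlier results of these data known. The genes named are the 10 iron genes, *Phf6*, in each iron list the 3 tested genes with the smallest p and the 3 with the highest FPKM, and in each marker list the 3 with the highest FPKM. *Kit*, *Ptprc*, *Spi1*, *Runx1*, *Mpo* and *Itgam* were set to check the label, and *Lcn2*, *Slc25a28*, *Hmox1*, *Marco*, *Timd4*, the ferritin pseudogenes and the iron genes without counts are named besides. The T and B cell marker list is not reported here.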

Additional observations from a re-analysis of the deposited data

How the results depend on the processing

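No paired analysis was possible because the replicate numbers of the groups (1 to 3 and 11 to 13) are not shared. Over 122 alternative values of the 10 iron genes, 107 kept their direction and their side of the threshold, 14 lost the call, 1 gained it and 0 reversed. *Tfrc*, *Slc11a2*, *Slc25a37*, *Ftl1*, *Slc40a1* and *Aco1* kept their call in all alternatives run, with log2 fold changes of 0.57 to 0.86, 1.13 to 1.32, 0.53 to 0.81, -1.27 to -0.89, 0.84 to 2.32 and 1.00 to 1.23. The losses were in *Fth1* (5), *Slc11a1* (5) and *Steap3* (4, 1 of them without the count filter at an adjusted p of 0.181). Leaving out 1 library at a time, the count of iron genes called higher lay between 5 and 8 and that called lower stayed at 1. Over all genes tested, the same fits called 2188 to 3123 higher and 2514 to 3327 lower, against 3039 and 3210 with all libraries. Limma on log2(FPKM + 1) gave *Slc11a1* a log2 fold change of 0.39 and *Cybrd1* one of -1.51, where edgeR gave 0.90 and -5.40; the added 1 shrinks changes of genes at low FPKM. Of 475 alternative values of the other named genes, 463 kept direction and call, 10 lost the call and 2 gained it, and the causes were not tested. With 3 libraries per group an exact test of a single ratio cannot go under p = 0.1. *Slc11a1* and *Slc40a1* rest on 27 to 283 counts per library, the fewest of the 10 genes in every library, and carry the most counting error.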
